A study of Mus musculus with 20 samples.

Results

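The 9 genes of the hepatic drug-handling system described here were measured in fasted and refed mouse livers with mutant or normal Prox1. They are the xenobiotic receptor genes Nr1i2 (pregnane X receptor, PXR), Nr1i3 (constitutive androstane receptor, CAR) and Ahr (aryl hydrocarbon receptor), the enzyme genes Por and Alas1, and the cytochrome P450 genes Cyp1a2, Cyp3a11, Cyp3a13 and Cyp3a25. They were taken by symbol, without regard to their values, from a table of read counts for 29915 genes, and all 9 were among the 13894 genes that passed the filter on low counts.

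Messenger RNA was sequenced from whole livers of male mice on chow. K556R mice carried a knock-in that replaces Prox1 in hepatocytes with a form that cannot receive SUMO, a small protein modifier, at that lysine; Cre recombination switched it on at 8 weeks of age, and livers were collected 11 weeks afterwards, at Zeitgeber times 15 to 17. WT mice had normal Prox1. The 4 groups were refed K556R, refed WT, fasted K556R and fasted WT livers, with 5 libraries each. Sample titles call the genotypes Cre and Ctrl, so by the titles an effect of Cre alone cannot be told apart from one of K556R.

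PXR and CAR are nuclear receptors that sense foreign chemicals and endogenous steroids and bile acids, pair with retinoid X receptors, and switch on Cyp3a and Cyp2b genes; Ahr senses planar aromatic chemicals, pairs with Arnt and switches on Cyp1a genes. The P450 enzymes made from these genes each hold a haem group and take electrons from NADPH through a single reductase, encoded by Por. Alas1 encodes the rate-limiting enzyme of hepatic haem synthesis and is held down by haem itself.

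Library totals ran from 33746054 to 50647297 counts, and 14 libraries were of batch 1 and 6 of batch 2, with 3 of the batch 2 libraries in the refed K556R group and 1 in each other group. Levels are given as CPM, counts scaled to a common library size by edgeR. Changes and differences given by batch are differences of mean log2 CPM and were not tested. In batch 2 they rest on 1 library per group, or 3 in refed K556R livers. Changes and differences for batch 1 alone come instead from edgeR fitted to that batch, so the 2 kinds of value differ somewhat. Prox1 mRNA was lower in K556R livers by 0.72 on the log2 scale averaged over both feeding states (SE 0.10, a ratio of 0.609, adjusted p = 0.00564 by edgeR's quasi-likelihood test), and since a changed codon need not alter a gene's count, this does not check the labels. The 8 hepatocyte markers summed to between 99310 and 146300 CPM in every library, so the labelled tissue had its defining mRNAs, and their sums by group are given with the P450 genes. Libraries numbered 1_b1 of the fasted and refed K556R groups stood apart on 2 lists. In them 8 proliferation genes summed to 28.4 and 46.4 CPM, against 10.9 to 23.8 CPM in the other 18 libraries. The 7 lymphocyte markers summed to 12.4 and 15.4 CPM, against 2.63 to 9.61 CPM. Hepatocyte, Kupffer cell, endothelial, stellate and intestinal marker sums of both lay within the range of the other 18. Of cholangiocyte marker sums only the refed one, 47.6 CPM, lay outside, above 42.9 CPM. Within their groups these libraries had the highest Cyp3a11 and the lowest Cyp1a2 and Nr1i3, so the refeeding changes of those genes in K556R livers are given with and without them.

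Promoter sequence is shown for the gene with the largest response, Por, and for the highest Cyp3a genes, Cyp3a11 and Cyp3a25, whose upstream regions hold letters that receptors of this system are known to bind. The stretches are RefSeq sequence (GRCm38.p6), read 5′ to 3′ on the strand of the gene, and start 250 bases upstream of the RefSeq start; any part that GENCODE annotates as an exon of the gene is left out. Capitals mark AGGTCA, the nuclear receptor half-site, GCGTG, the core bound by Ahr with Arnt, and GGGCGG, the GC box, on either strand.
Por (chr5:135688895-135689035, plus strand): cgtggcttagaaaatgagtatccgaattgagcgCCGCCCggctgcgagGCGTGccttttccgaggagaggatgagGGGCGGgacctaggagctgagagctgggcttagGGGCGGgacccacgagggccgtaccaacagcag
Cyp3a11 (chr5:145879965-145880104, minus strand): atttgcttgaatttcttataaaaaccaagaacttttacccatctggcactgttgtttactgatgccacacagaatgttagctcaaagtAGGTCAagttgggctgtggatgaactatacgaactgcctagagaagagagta
Cyp3a25 (chr5:146009619-146009868, minus strand): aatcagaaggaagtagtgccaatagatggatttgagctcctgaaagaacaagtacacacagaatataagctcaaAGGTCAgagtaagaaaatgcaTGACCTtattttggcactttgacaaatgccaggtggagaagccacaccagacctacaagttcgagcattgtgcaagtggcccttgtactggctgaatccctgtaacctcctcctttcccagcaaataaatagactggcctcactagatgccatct
The Por stretch held 3 GC boxes, 1 GCGTG and 0 half-sites. Cyp3a11 had 1 half-site, at -162 to -157 from the start, and Cyp3a25 had 2, at -176 to -171 and -155 to -150. The stretches of Cyp3a11 and Cyp3a25 shared the 10-base run cacacagaat, which ended 13 letters before the half-site in Cyp3a11 and 10 letters before the first half-site in Cyp3a25. Over 32851 windows of 250 bases upstream of RefSeq starts, 14.0% held the half-site, 28.2% held GCGTG and 32.7% held the GC box, so single matches are common. These shares are for full windows, longer than the trimmed Por and Cyp3a11 stretches. The full Por window held 4 GC boxes and 3 GCGTG, and that of Cyp3a11 held 1 half-site and 1 GC box. The Por window lies inside the gene as GENCODE places it. No window of Nr1i2, Nr1i3, Cyp1a2 or Cyp3a13 held any of the 3 motifs, Alas1's window lay wholly in annotated exons and is not printed, and Ahr had no entry.

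**Figure D1:**
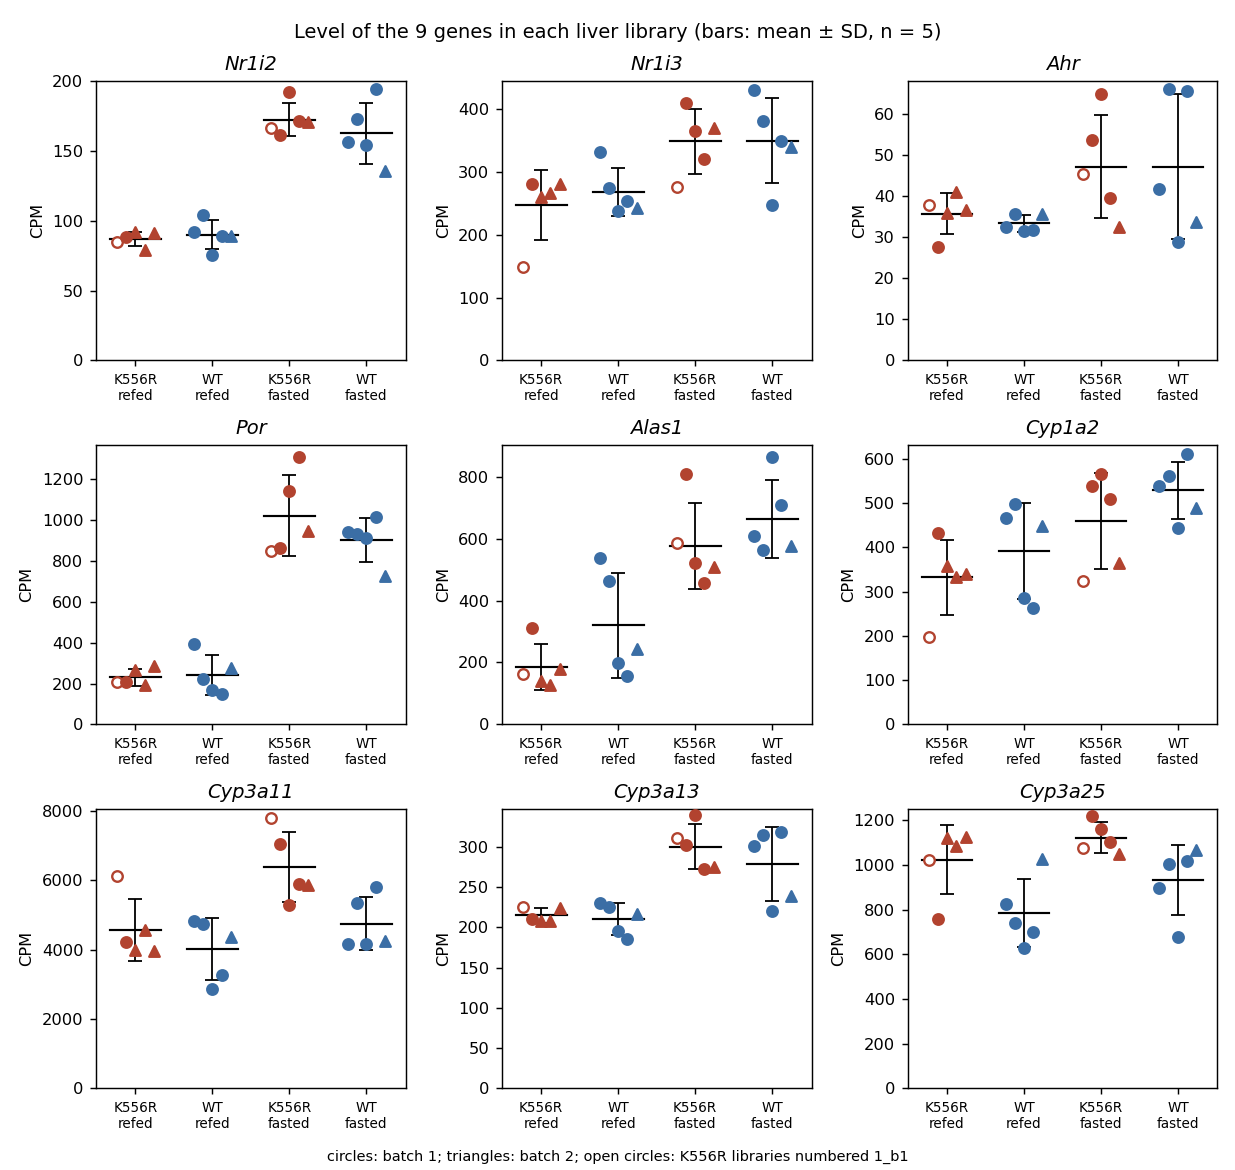
CPM of each gene in each liver library (linear axes from 0), for refed K556R, refed WT, fasted K556R and fasted WT livers; circles are batch 1, triangles batch 2, open circles the K556R libraries numbered 1_b1, and bars the mean ± SD of 5 libraries. Refed and fasted livers of the same genotype do not overlap for Nr1i2, Por and Alas1, while K556R and WT livers overlap in every panel.

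Of the 3 receptor genes, Nr1i2 fell with refeeding in both genotypes, Nr1i3 passed the test in K556R livers alone and Ahr in neither. Nr1i2 (chr16:38248323-38294824, minus strand; positions are those of GENCODE M21 on GRCm38) measured 85.0, 88.1, 91.3, 79.2 and 91.9 CPM in refed K556R livers, against 166, 161, 192, 171 and 171 CPM in fasted K556R livers. In WT it measured 91.7, 104, 75.3, 89.4 and 89.3 CPM in refed livers and 156, 173, 154, 194 and 136 CPM in fasted livers. Each refed library lay below each fasted library of its genotype, and the values of the 2 genotypes overlapped. The fall came to 0.515 of the fasting level in K556R livers (log2 change -0.96, SE 0.093, adjusted p = 2.08e-07) and 0.554 in WT livers (log2 change -0.85, SE 0.088, adjusted p = 2.49e-07; both by edgeR's quasi-likelihood test). Within batches the log2 change was -0.99 and -0.97 in K556R livers and -0.91 and -0.61 in WT livers (batch 1 and batch 2).

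Nr1i3 (chr1:171213970-171220701, plus strand) showed a smaller difference with more scatter. Its level was 149, 281, 280.0, 266 and 260.1 CPM in refed K556R livers, against 276, 410.1, 366, 321 and 369.8 CPM in fasted K556R livers. WT livers had 331, 274, 237, 254 and 242 CPM when refed and 431, 381, 247, 349.6 and 339.8 CPM when fasted. The ranges of refed and fasted livers overlapped in both genotypes, and the lowest refed value, 149 CPM, came from the apart library 1_b1. Nr1i3 fell with refeeding in K556R livers (log2 change -0.53, SE 0.18, adjusted p = 0.0208), and in WT livers its log2 change of -0.38 (SE 0.16, adjusted p = 0.064) missed the threshold of 0.05, both by edgeR's quasi-likelihood test. Batches 1 and 2 gave -0.73 and -0.46 in K556R livers and -0.34 and -0.49 in WT livers. With both apart libraries left out the change was -0.40 in K556R livers (adjusted p = 0.0338) and -0.39 in WT livers (adjusted p = 0.0109), so the gene then passed in both genotypes; without only the refed 1_b1 library the K556R call was lost (-0.33, adjusted p = 0.0839), and so it was without fasted K556R 1_b2 (-0.52, adjusted p = 0.0589) and in batch 1 alone (-0.67, adjusted p = 0.0642). The WT result passed without WT fasted 3_b1 (-0.48, adjusted p = 0.0195), WT refed 1_b1 (-0.48, adjusted p = 0.0295) or K556R refed 1_b1 (-0.39, adjusted p = 0.0178).

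Ahr (chr12:35497974-35535038, minus strand) had the lowest level of the 9 genes, also per length, and was the most scattered of the receptors in fasted livers. Refed K556R livers had 27.7 to 41.0 CPM (median 36.7) and fasted K556R livers 32.5 to 65.0 CPM (median 45.3). Refed WT livers had 31.5 to 35.6 CPM (median 32.4) and fasted WT livers 28.7 to 66.2 CPM (median 41.8). Refed libraries were close together, around the low end of the fasted range. The log2 change with refeeding was -0.32 in K556R livers (SE 0.23, adjusted p = 0.295) and -0.49 in WT livers (SE 0.21, adjusted p = 0.0701), neither past edgeR's test. It was -0.63 and -0.54 in batch 1, for K556R and WT livers, but 0.22 and 0.08 in batch 2. The WT result passed with DESeq2 (-0.47, adjusted p = 0.0442), in batch 1 alone (-0.62, adjusted p = 0.0498), without WT fasted 3_b1 (-0.62, adjusted p = 0.0146) and without WT fasted 1_b2 (-0.59, adjusted p = 0.0411).

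Partners and regulators of these receptors were examined as a list. Of 20 tested genes on it, 3 were higher and 7 lower in refed than in fasted K556R livers, where 19.6% of all genes tested were higher and 20.3% lower by the same test (39.9% in all). In WT livers 3 were higher and 8 lower, where 20.9% of all genes were higher and 24.2% lower (45.1% in all). The list's share of calls was thus near that over all genes in both genotypes. The list's median log2 change was -0.113 in K556R livers and -0.173 in WT livers, against 0.007 and -0.012 over all genes tested. Foxo1, a forkhead factor that acts as a coactivator of PXR and CAR, fell by 1.42 on the log2 scale in K556R livers and by 1.62 in WT livers. Hnf4a, the hepatocyte nuclear receptor that drives Nr1i2 and Nr1i3, fell by 0.80 in K556R livers and by 0.73 in WT livers. The corepressor gene Ncor1 fell by 0.42 in K556R livers and by 0.54 in WT livers, and the coactivator gene Ncoa2 by 0.31 and 0.49. Hsp90aa1, a chaperone that holds unliganded CAR and Ahr in the cytoplasm, rose by 1.25 in K556R livers and by 0.92 in WT livers. Rxrg, a retinoid X receptor gene, rose by 1.18 and 1.26, at a low level. It averaged 5.92 CPM in refed and 2.42 CPM in fasted K556R livers, and 5.72 and 2.38 CPM in WT livers.

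Por and Alas1, which supply electrons and haem to the P450 enzymes, had the largest falls. Por (chr5:135670033-135735326, plus strand) measured 205, 206, 284, 194 and 267 CPM in refed K556R livers, against 850.2, 864, 1141, 1310 and 949 CPM in fasted K556R livers. In WT livers it measured 392, 224, 169.5, 148 and 275 CPM after refeeding and 942, 932, 910.4, 1015 and 726 CPM in the fasted state. The highest refed library, of WT mice, held 392 CPM, well under the lowest fasted library at 726 CPM. Por mRNA of refed livers was 0.224 of the fasting level in K556R mice (log2 change -2.16, SE 0.23, adjusted p = 1.12e-06) and 0.267 in WT mice (log2 change -1.91, SE 0.22, adjusted p = 1.36e-06, both by edgeR's quasi-likelihood test). Batches 1 and 2 gave -2.31 and -1.95 in K556R livers and -2.13 and -1.40 in WT livers. In bulk liver RNA, fewer cells of a type and less RNA per cell cannot be told apart.

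Alas1 (chr9:106233455-106248654, minus strand) had 164, 312, 179, 126 and 140.1 CPM in refed K556R livers and 586, 811, 521, 458 and 509 CPM in fasted K556R livers. The WT values were 537, 462, 197, 157 and 245 CPM in refed livers and 609, 564, 865, 710.4 and 576 CPM in fasted livers. The groups did not overlap in either genotype, although 2 refed WT libraries, at 537 and 462 CPM, came close to the lowest fasted WT library at 564 CPM. Alas1 fell to 0.351 of the fasting level in K556R livers (log2 change -1.51, SE 0.31, adjusted p = 0.000752) and to 0.478 in WT livers (log2 change -1.07, SE 0.29, adjusted p = 0.00633, both by edgeR's quasi-likelihood test). Within batches the change was -1.36 and -1.80 in K556R livers and -1.19 and -1.23 in WT livers. In batch 1 fitted alone, with 2 refed K556R libraries, the K556R change was -1.32 and did not pass (adjusted p = 0.0543).

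Other genes of haem synthesis moved by much less than Alas1 and in both directions. Of 18 others tested, 5 were higher and 2 lower in refed than in fasted K556R livers, where 39.9% of all genes passed in either direction. In WT livers 5 were higher and 3 lower, where 45.1% of all genes passed, so neither share stood far from that over all genes. The median log2 change was 0.017 in K556R livers and 0.065 in WT livers. Those named here encode later steps or haem-related mitochondrial transport: Ppox, protoporphyrinogen oxidase, rose by 0.64 in K556R livers and 0.61 in WT livers, Uros, uroporphyrinogen III synthase, by 0.50 and 0.41, and Abcb10, a mitochondrial transporter needed for haem synthesis, by 0.59 and 0.45. Alad, the enzyme of the step after Alas1, rose by 0.49 in K556R livers and by 0.56 in WT livers, and Tmem14c, a mitochondrial membrane protein gene needed for haem synthesis, by 0.23 and 0.35. On the list of haem breakdown and haem-binding genes, 0 of 11 were higher and 6 lower in refed K556R livers, and 1 was higher and 6 lower in refed WT livers, where 20.3% of all genes in K556R livers and 24.2% in WT livers were lower. Bach1, a repressor that senses haem, fell by 0.90 in K556R livers and by 1.07 in WT livers; Nr1d2, a haem-binding clock repressor, by 1.39 and 1.48; Tdo2, a haem-containing dioxygenase of tryptophan breakdown, by 1.01 and 0.87; and Hmox2, the constitutive haem oxygenase, by 0.59 and 0.42.

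No other electron carrier tested fell by more than 0.48 on the log2 scale. Among 11 other tested genes of microsomal and related electron transfer, 1 was higher and 1 lower in refed than in fasted K556R livers, a smaller share than the 39.9% of all genes. In WT livers 3 were higher and 1 lower, beside 45.1% of all genes. Cyb5b, the cytochrome b5 of the outer mitochondrial membrane, rose by 0.90 in K556R livers and by 0.99 in WT livers. Pgrmc2, a haem-binding membrane protein, rose by 0.45 in WT livers, with a log2 change of 0.19 in K556R livers that did not pass (adjusted p = 0.0964). Nos3, an endothelial nitric oxide synthase whose reductase domain resembles Por, fell by 0.48 in K556R livers, with a change of -0.06 in WT livers that did not pass. Cyb5r1, a cytochrome b5 reductase, fell by 0.34 in WT livers, and its change of 0.01 in K556R livers did not pass. Cyb5r3, the main cytochrome b5 reductase of liver microsomes, rose by 0.31 in WT livers, and its change of 0.20 in K556R livers did not pass. Pgrmc1, a haem-binding relative of Pgrmc2, did not pass in either, at -0.14 in K556R livers and -0.10 in WT livers.

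**Figure D2:**
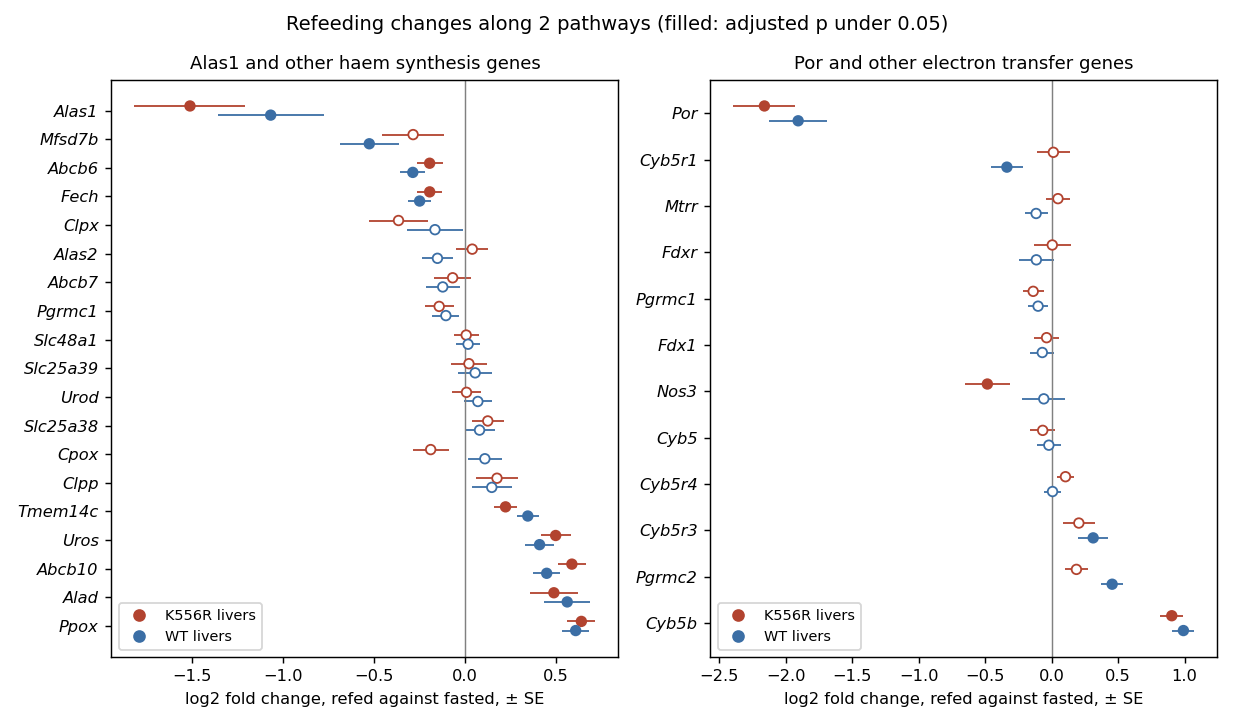
Log2 fold change, refed against fasted, with its SE for Alas1 and 18 other genes of haem synthesis and for Por and 11 other electron transfer genes, in K556R livers (red) and WT livers (blue); filled points passed an adjusted p of 0.05. Alas1, at -1.51 and -1.07, and Por, at -2.16 and -1.91, lie far to the left of the other genes of their lists.

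Log2 changes of the P450 genes lay between -0.46 and -0.24, nearer 0 than those of Por and Alas1, and Cyp3a13 was the one that passed in both genotypes. Cyp3a13 (chr5:137892932-137921619, minus strand), a Cyp3a gene that lies apart from the main cluster, measured 226, 209.7, 223, 207 and 208 CPM in refed K556R livers and 312, 303, 339, 272 and 274 CPM in fasted K556R livers. In WT livers it measured 230.4, 225, 195, 185 and 216 CPM after refeeding and 301, 315, 219.9, 318 and 239 CPM in the fasted state. All refed K556R libraries lay below all fasted ones, whereas in WT the lowest fasted library overlapped the refed range. Cyp3a13 fell to 0.735 of the fasting level in K556R livers (log2 change -0.44, SE 0.10, adjusted p = 0.00144) and to 0.757 in WT livers (log2 change -0.40, SE 0.095, adjusted p = 0.0017, both by edgeR's quasi-likelihood test). Batches 1 and 2 gave -0.49 and -0.37 in K556R livers and -0.46 and -0.15 in WT livers.

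Cyp3a11 (chr5:145854426-145879964, minus strand), the main inducible Cyp3a gene of mouse liver and a PXR target, had the highest level of the 9 genes, also per length. It measured 6115, 4220, 3946, 4573 and 3979 CPM in refed K556R livers and 7807, 7044, 5299, 5882 and 5871 CPM in fasted K556R livers. WT livers had 4825, 4747, 2868, 3274 and 4374 CPM when refed and 4172, 5332, 4172, 5799 and 4260 CPM when fasted. Refed and fasted ranges overlapped in both genotypes, and in K556R they did so through the refed 1_b1 library at 6115 CPM. The K556R change passed the test narrowly (log2 change -0.43, SE 0.16, a ratio of 0.742, adjusted p = 0.0414) and the WT change did not (log2 change -0.24, SE 0.16, adjusted p = 0.237, both by edgeR's quasi-likelihood test). Within batches the change was -0.34 and -0.50 in K556R livers and -0.33 and 0.04 in WT livers. Without both apart libraries the K556R change was -0.52 (adjusted p = 0.0213). The K556R call was lost without the low-count filter (-0.41, adjusted p = 0.0689), in batch 1 alone (-0.33, adjusted p = 0.327), and when any 1 of 8 libraries was left out: K556R fasted 1_b1, 2_b1 or 1_b2, K556R refed 2_b1, 1_b2, 2_b2 or 3_b2, or WT refed 1_b2 (-0.44 to -0.35, adjusted p = 0.0524 to 0.143).

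Cyp3a25 (chr5:145977194-146009618, minus strand), a neighbour of Cyp3a11 in the cluster, and Cyp1a2 (chr9:57676937-57683703, minus strand), which oxidises caffeine and aromatic amines and is an Ahr target, had differences that did not pass in either genotype. Cyp3a25 ran from 757 to 1126 CPM in refed K556R livers (median 1086) and from 1050 to 1221 CPM in fasted K556R livers (median 1103). It ran from 629 to 1028 CPM in refed WT livers (median 741) and from 679 to 1068 CPM in fasted WT livers (median 1004). The log2 change with refeeding was -0.25 in K556R livers (SE 0.12, adjusted p = 0.117) and -0.26 in WT livers (SE 0.12, adjusted p = 0.0783) by edgeR's test. The refeeding change of Cyp3a25 was -0.37 and 0.08 in batches 1 and 2 of K556R livers, and -0.30 and -0.05 in WT livers. It passed in K556R livers without fasted 1_b2 (-0.38, adjusted p = 0.0269), and in WT livers without fasted 3_b1 (-0.34, adjusted p = 0.0149) or refed 1_b2 (-0.33, adjusted p = 0.0379).

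Cyp1a2 ran from 197 to 434 CPM in refed K556R livers (median 339.9) and from 325 to 566 CPM in fasted K556R livers (median 511). It ran from 263 to 497 CPM in refed WT livers (median 448) and from 445 to 611 CPM in fasted WT livers (median 539). Fasted values were mostly the higher ones, with an overlap in both genotypes. Its log2 change was -0.46 in K556R livers (SE 0.23, adjusted p = 0.12) and -0.43 in WT livers (SE 0.21, adjusted p = 0.112) by edgeR's test, and without both apart libraries the change was -0.34 in K556R livers (adjusted p = 0.202) and -0.42 in WT livers, which then passed (adjusted p = 0.0452). Batch 1 gave -0.70 and -0.56 in K556R and WT livers, and batch 2 gave -0.08 and -0.13. Cyp1a1, its inducible neighbour on chromosome 9, averaged 0.751 CPM in refed and 1.33 CPM in fasted K556R livers, and 0.813 CPM in refed and 1.05 CPM in fasted WT livers.

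Some hepatocyte and endothelial markers also differed between refed and fasted livers. The 8 hepatocyte markers summed to 99310 to 115500 CPM in refed K556R livers and 127700 to 138100 CPM in fasted K556R livers, without overlap, and to 104600 to 111900 CPM in refed WT livers and 103600 to 146300 CPM in fasted WT livers, with overlap. By edgeR's test 0 of the 8 were higher and 4 lower in refed K556R livers, and 1 was higher and 3 lower in refed WT livers. Over all genes tested, 19.6% were higher and 20.3% lower in K556R livers, and 20.9% higher and 24.2% lower in WT livers. Log2 changes of this list were above 0 for 2 of the 8 in K556R livers and for 1 of the 8 in WT livers. Alb, the albumin gene, fell by 0.30 in K556R livers, and Hnf4a, named above, is also on this list. The 8 sinusoidal endothelial markers summed to 116 to 151 CPM in refed K556R livers and 140.5 to 162 CPM in fasted K556R livers, and to 117 to 135 CPM in refed WT livers and 99.4 to 172 CPM in fasted WT livers. Refed and fasted sums of this list overlapped in both genotypes. Of these endothelial markers 0 were higher and 2 lower in refed K556R livers, and 0 were higher and 3 lower in refed WT livers. Their median log2 change was -0.2 in K556R livers, with 2 of the 8 above 0, and -0.159 in WT livers, with 0 above 0. Stab1, a scavenger receptor gene, fell by more, 0.79 in K556R livers and 0.85 in WT livers. Lyve1, a hyaluronan receptor gene, fell by 0.87 and 0.80. Alb, Stab1 and Lyve1 were named after their values were seen and do not stand for their lists. The 8 markers of Kupffer cells, the liver's macrophages, had medians of 0.296 in K556R livers and -0.453 in WT livers. Of these 0 and 1 were lower and 0 higher. Refed and fasted sums of this list overlapped, at 74.6 to 158 and 75.55 to 103 CPM in K556R livers. In WT livers they were 62.3 to 102 and 44.9 to 244 CPM. Single libraries gave the highest sums, 158 CPM in K556R refed 1_b1 and 244 CPM in WT fasted 2_b1. The part of these marker changes in the results for the 9 genes was not tested.

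Counted together, 6 of the 9 genes were lower in refed than in fasted K556R livers by edgeR's test, where 39.9% of all genes tested passed in either direction (19.6% higher, 20.3% lower). In WT livers 4 of the 9 were lower, where 45.1% of all genes passed (20.9% higher, 24.2% lower). None of the 9 was called higher in either genotype. The median log2 change of the 9 genes was -0.464 in K556R livers and -0.431 in WT livers, against 0.007 and -0.012 over all genes tested. Ranges of refed and fasted libraries did not overlap for 4 of 9 genes in K556R livers (Nr1i2, Por, Alas1 and Cyp3a13) and for 3 of 9 in WT livers (the same without Cyp3a13), in each case with the refed libraries lower. Over all genes tested, ranges did not overlap for 26.9% in K556R livers (14.1% with refed lower) and for 34.6% in WT livers (18.7% with refed lower).

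**Figure D3:**
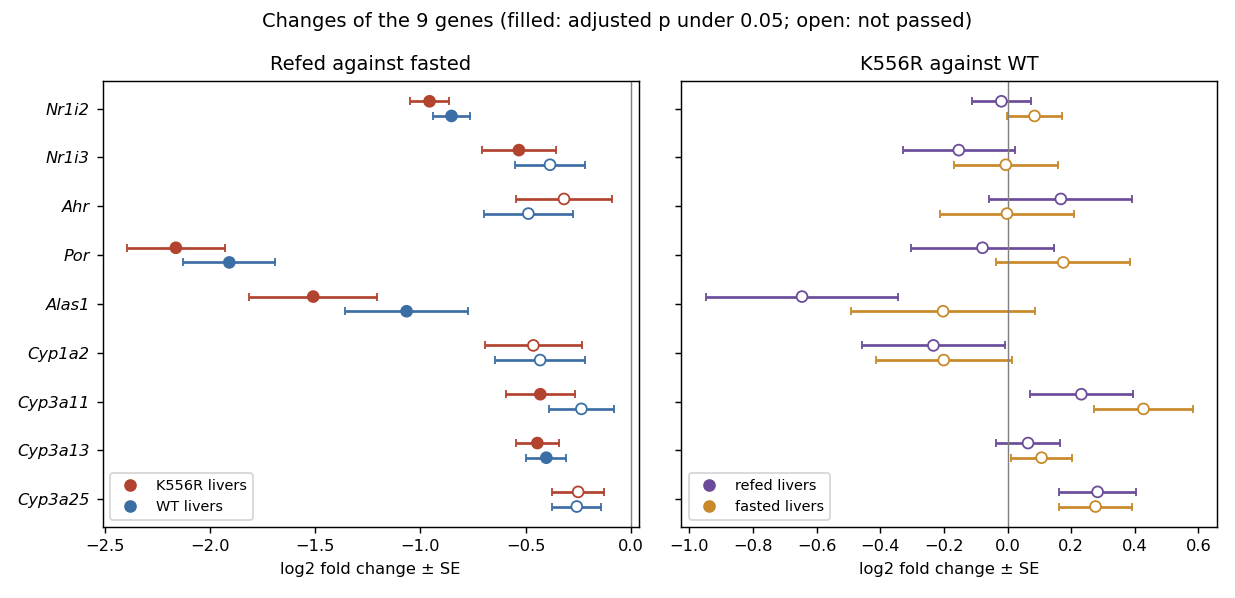
Log2 fold change of the 9 genes with its SE, refed against fasted in K556R livers (red) and WT livers (blue) on the left, and K556R against WT in refed (purple) and fasted livers (orange) on the right; filled points passed an adjusted p of 0.05. On the left all points lie below 0, with Por lowest at -2.16 and -1.91, and on the right no point is filled.

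The refeeding responses of K556R and WT livers were compared directly by the interaction of genotype and feeding. The difference, K556R minus WT, was -0.44 for Alas1 (SE 0.42), -0.25 for Por (SE 0.31), -0.20 for Cyp3a11 (SE 0.22), -0.15 for Nr1i3 (SE 0.24), -0.10 for Nr1i2 (SE 0.13) and 0.17 for Ahr (SE 0.31) on the log2 scale, and between -0.04 and 0.01 for the other 3 genes. With each library left out in turn the difference ran from -0.71 to -0.23 for Alas1, from -0.37 to -0.03 for Por and from 0.01 to 0.32 for Ahr. It was -0.71 for Alas1 and 0.32 for Ahr without K556R refed 2_b1, -0.23 for Alas1 and -0.03 for Por without WT refed 1_b1, and 0.01 for Ahr without K556R fasted 1_b2. Every adjusted p with all libraries was 0.9997 by edgeR's test, and 0 of 9 genes passed, as did 0% of all genes. Over all genes 553 had an unadjusted p under 0.05, which none of the 9 did, and DESeq2 called 1 gene, not one of the 9. Calls made in K556R livers only, for Nr1i3 and Cyp3a11, are therefore not shown to differ from WT, and differences as large as the SEs given here are within the error of these estimates.

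Between genotypes, the mean levels of Cyp3a11 and Cyp3a25 were higher and that of Alas1 lower in K556R than in WT livers of the same feeding state, and none of these differences passed the test over all genes. Cyp3a11 averaged 6381 ± 1019 CPM in fasted K556R livers and 4747 ± 766 CPM in fasted WT livers (SD, n = 5 each), and 4 of the 5 K556R libraries lay above every WT library. The log2 difference was 0.43 (SE 0.16, a ratio of 1.35, adjusted p = 0.45 by edgeR's test), with 0.42 in batch 1 and 0.46 in batch 2, and 0.34 without both apart libraries. In refed livers it averaged 4567 ± 901 CPM in K556R mice and 4018 ± 893 CPM in WT mice (log2 difference 0.23, SE 0.16, adjusted p = 0.965). In refed livers the Cyp3a11 difference was 0.41 in batch 1, -0.07 in batch 2 and 0.07 without both apart libraries.

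Cyp3a25 averaged 1122 ± 68.9 CPM in fasted K556R livers and 933 ± 155 CPM in fasted WT livers, and 1023 ± 154 CPM in refed K556R livers and 785 ± 154 CPM in refed WT livers (SD, n = 5 each). Its log2 difference was 0.28 in both feeding states, and 0.28 averaged over them (SE 0.084, a ratio of 1.21, adjusted p = 0.33 by edgeR's test). That mean difference was 0.32 in batch 1, 0.04 in batch 2 and 0.25 without both apart libraries. K556R and WT ranges of Cyp3a25 overlapped in both states.

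Cyp3a59, a further cluster gene, was the only one of 5 other Cyp3a genes in the table with counts enough to be tested, and it leaned the same way. It averaged 62.0 ± 17.5 CPM in refed K556R livers and 33.3 ± 9.10 CPM in refed WT livers, and 58.5 ± 7.76 CPM in fasted K556R livers and 38.1 ± 9.11 CPM in fasted WT livers (SD, n = 5 each). Its mean log2 difference was 0.72 (SE 0.14) and did not pass edgeR's test (adjusted p = 0.141), while DESeq2 called it (adjusted p = 0.000916); without both apart libraries it was 0.52 (adjusted p = 0.25, edgeR). Cyp3a genes of the cluster are close in sequence and the treatment of shared reads is not given in the sources used here, so the split of counts among Cyp3a11, Cyp3a25 and Cyp3a59 is uncertain.

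Alas1 averaged 184 ± 74.2 CPM in refed K556R livers and 320 ± 169 CPM in refed WT livers (SD, n = 5 each), with overlapping ranges. The log2 difference was -0.65 (SE 0.30, adjusted p = 0.965 by edgeR's test), with -0.39 in batch 1, -0.74 in batch 2 and -0.53 without both apart libraries. In fasted livers the Alas1 difference was -0.20 (SE 0.29, adjusted p = 0.929). Cyp1a2 differed by -0.23 in refed livers (SE 0.22) and -0.20 in fasted livers (SE 0.21), moving to -0.02 and -0.10 without both apart libraries. Differences of Nr1i2, Nr1i3, Ahr, Por and Cyp3a13 lay between -0.15 and 0.18 in the 2 states, and none passed.

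No range of the 9 genes was free of overlap between K556R and WT livers in either state, and over all genes tested 0.619% were free of it in refed livers and 0.914% in fasted livers. By edgeR's test 0 of 9 genes were called in refed livers and 0 of 9 in fasted livers, where 0% of all genes were called in each state, with 693 and 1136 genes at an unadjusted p under 0.05, 2 of the 9 among them each time. DESeq2 called 6 genes in refed livers and 68 in fasted livers, with 0 of the 9 in either. Averaged over feeding states 0 of 9 were called, against 4 genes or 0.0288% of all genes by edgeR and 41 genes by DESeq2, although Cyp3a25, Cyp3a11 and others, 1288 genes in all, had an unadjusted p under 0.05. Of 106 tested genes on the lists of receptor partners, CAR and PXR targets, Ahr targets, haem synthesis, haem breakdown and electron transfer, edgeR called 0 in any comparison of the genotypes or in the interaction, with 11 at an unadjusted p under 0.05 in refed livers, 12 in fasted livers, 21 averaged over both and 6 in the interaction. DESeq2 called 0 in refed livers, 2 in fasted livers (Htatip2 and Insig2), 1 averaged over both (Htatip2) and 0 in the interaction.

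Htatip2, a reductase gene induced through Ahr, had the lowest adjusted p of these genes in the comparison of fasted livers, equal to the lowest over all genes. It averaged 31.7 ± 4.20 CPM in fasted K556R livers and 21.1 ± 1.96 CPM in fasted WT livers (SD, n = 5 each; log2 difference 0.59, SE 0.10, adjusted p = 0.0666 by edgeR's test and 0.00027 by DESeq2). Insig2, which holds back the SREBP regulators of lipid synthesis and is a CAR target, averaged 382 ± 47.1 CPM in fasted K556R livers and 231 ± 59.03 CPM in fasted WT livers (log2 difference 0.72, SE 0.19, adjusted p = 0.28 by edgeR's test). The 13 Ahr targets had a median log2 difference of 0.351 in fasted livers, against -0.008 over all genes, and 0.114 in refed livers, against 0.016. In each state 10 lay above 0 and 3 below, and 0 passed edgeR's test. Cyp1a2, an Ahr target outside this count, lay below 0 in both, at -0.20 fasted and -0.23 refed. Some of the list scattered widely in refed K556R livers, such as Ugt1a9 at 40.65 ± 30.1 CPM and Gsta1 at 4.64 ± 6.07 CPM (SD, n = 5). The difference of this list from all genes was not tested.

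Known target genes of the receptors held calls in both directions, at shares near those over all genes for CAR and PXR targets. Of 34 such genes other than the 9, 5 were higher and 9 lower in refed than in fasted K556R livers, where 19.6% of all genes were higher and 20.3% lower. In WT livers 8 were higher and 9 lower, where 20.9% of all genes were higher and 24.2% lower. Their median log2 change was -0.115 in K556R livers and -0.06 in WT livers. Thrsp, a regulator of fat synthesis that also responds to carbohydrate, rose by 1.21 in K556R livers and by 2.27 in WT livers, and Aldh1a7, an aldehyde dehydrogenase, by 0.56 and 0.74. Scd2, a stearoyl-CoA desaturase, rose by 0.46 in K556R livers and by 0.99 in WT livers, and Ugt2b35, a glucuronosyltransferase, by 0.94 and 0.77. Abcc2, the canalicular exporter of conjugates, fell by 0.53 in K556R livers and by 0.71 in WT livers. Gadd45b, a stress-response gene, fell by 2.60 and 2.54 at a low level. It averaged 0.58 CPM in refed and 4.05 ± 2.55 CPM in fasted K556R livers, and 0.50 and 3.17 ± 2.13 CPM in WT livers (SD, n = 5). Of 13 other Ahr targets tested, 1 was higher and 3 lower in refed K556R livers, and 3 were higher and 0 lower in refed WT livers, beside 39.9% and 45.1% of all genes called in either direction. Nfe2l2, the NRF2 factor, rose by 0.22 in both genotypes. Cyp1a1, Cyp1b1 and Tiparp fell in K556R livers, by 0.64, 1.12 and 0.46. Their changes of -0.34, -0.65 and -0.13 in WT livers did not pass. Cyp1b1 averaged only 0.31 CPM in refed and 0.76 CPM in fasted K556R livers, and Cyp1a1, given above, was also low. Nqo1 and Htatip2 rose in WT livers, by 0.79 and 0.41, with changes of 0.42 and -0.06 in K556R livers that did not pass. Selenbp1, a selenium-binding protein gene, did not pass in either, at -0.01 in K556R livers and 0.23 in WT livers. Fold changes of these lists passed edgeR's test unless stated, and the lists were not compared with each other by a test.

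Per kilobase of exon, the 9 genes spanned more than 2 orders of magnitude in each group. The length of a gene took in all its annotated exons, merged, such as 5093 bases for Cyp3a11 and 2083 for Cyp3a25. Comparisons between genes here therefore depend on which exons are annotated, and the transcripts in use were not measured. Cyp3a11 led at 897 ± 177 CPM per kb in refed K556R livers, 789 ± 175 in refed WT livers, 1253 ± 200.1 in fasted K556R livers and 932 ± 150.4 in fasted WT livers (SD, n = 5 each), and Cyp3a25 came next at 491 ± 74.1, 377 ± 73.7, 539 ± 33.1 and 448 ± 74.5 CPM per kb in the same groups. The ranges of these genes did not overlap with each other or with the gene that followed in any group. Por stood with Cyp1a2 in fasted livers, at 254 ± 49.2 CPM per kb in K556R and 225 ± 26.7 in WT mice, beside 229 ± 54.1 and 263 ± 31.9 for Cyp1a2, and their ranges overlapped. In refed livers Por was at 57.5 ± 10.2 CPM per kb in K556R and 60.1 ± 24.2 in WT mice, level with Nr1i3 at 56.0 ± 12.7 and 60.6 ± 8.67, while Cyp1a2 was at 165 ± 42.5 and 195 ± 54.2. Cyp3a13, Alas1, Nr1i3 and Nr1i2 followed between 29.8 and 108 CPM per kb, with overlap between most neighbours, and Ahr was lowest at 5.42 to 7.66 CPM per kb, with no overlap with the gene above it.

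**Figure D4:**
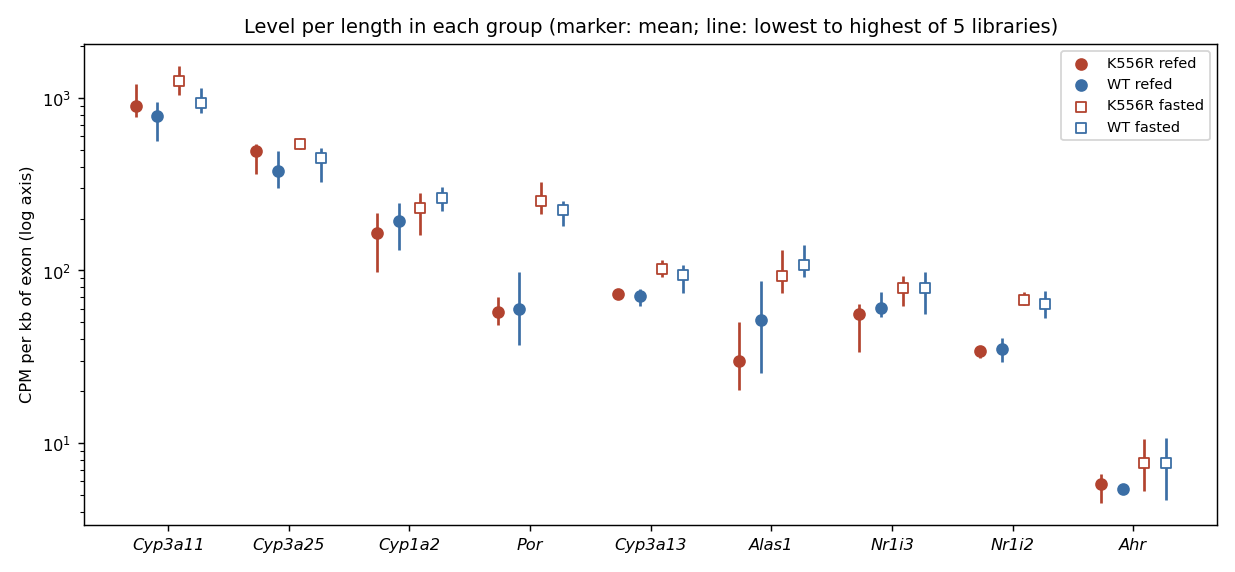
Mean level per kilobase of exon on a log axis for the 9 genes, with lines from the lowest to the highest of 5 libraries; filled circles are refed and open squares fasted livers, K556R in red and WT in blue. Cyp3a11 and Cyp3a25 are highest and Ahr lowest in all groups, and Por stands at the level of Nr1i3 in refed livers and of Cyp1a2 in fasted livers.

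Por and the P450 genes were also set side by side as the summed per-kilobase level of Cyp1a2, Cyp3a11, Cyp3a13 and Cyp3a25 divided by that of Por. It was 29.1 ± 6.37 in refed K556R livers (22.1 to 36.6) and 8.66 ± 2.18 in fasted K556R livers (6.23 to 11.0). It was 25.5 ± 5.63 in refed WT livers (17.0 to 31.9) and 7.77 ± 1.15 in fasted WT livers (6.36 to 9.26; SD, n = 5 each). Refed and fasted ranges of this ratio did not overlap in either genotype, and those of K556R and WT livers did in both states. The ratio is of mRNA, was set up after the levels were known and was not tested.

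Library-to-library variation within groups was compared among the 9 genes over 17 libraries, after the mean of each group and batch was removed. Of 36 pairs, 1 passed a permutation test within groups and batches after adjustment for the 36 pairs: Ahr and Cyp3a13 (Pearson r = 0.802, p = 0.00127, adjusted p = 0.0457; Spearman rho = 0.716, p = 0.00132, adjusted p = 0.0421). Without the 2 libraries farthest from the median of Ahr, r was 0.616 (permutation p = 0.00736, adjusted p = 0.18) and no longer passed after adjustment. Without both apart libraries it was 0.821 over 14 libraries (adjusted permutation p = 0.0456). In batch 1 it was 0.824 over 14 libraries, and in batch 2 -0.353 over only 3. Library WT fasted 3_b1 was the lowest for both genes, at -0.73 for Ahr and -0.38 for Cyp3a13 on the log2 scale from the mean of its group and batch. By rank, Ahr with Cyp3a25 (rho = 0.806, adjusted permutation p = 0.0443; r = 0.787, adjusted p = 0.0592) and Cyp3a13 with Cyp3a25 (rho = 0.777, adjusted permutation p = 0.0421; r = 0.795, adjusted p = 0.0592) also passed. Por and Alas1 had r = 0.558 and rho = 0.409 (adjusted permutation p = 0.346 and 0.371).

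For the 4 genes that varied most over the 20 libraries, the genes with the most similar profile were sought among 7184 expressed genes, by the root-mean-square difference of log2 CPM after each gene's own mean was removed. Nr1i2 was closest to Map1lc3b, an autophagosome protein gene (0.115), and to Mier3 (0.121). Por was closest to Fbxo31, an F-box gene (0.197), and to Pnpla2, the adipose triglyceride lipase gene (0.263). Alas1 had less similar neighbours, Arid5b (0.369) and Fbxo21 (0.414), and Cyp1a2 had Sirt3 (0.208), a mitochondrial deacetylase gene, and the P450 gene Cyp2c37 (0.226). These distances, in log2 units, describe shared levels across the feeding states and single libraries and carry no test.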

How the data were processed

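Gene-level read counts from 20 liver libraries were used as the authors deposited them, raw and not normalized. The submitters' processing notes name the genome build mm10 and the tools HTSeq, STAR, STAR-Fusion, TopHat, edgeR and DESeq2. How shared reads and strand were handled, and with which version and annotation, is not given in the sources used here. Per the labels' protocols, poly-A RNA was captured on beads and primed with random hexamers, by a directional or a non-directional method, so reads from a gene and an antisense partner cannot be told apart. All columns matched a sample by title.

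Low-count genes were removed with filterByExpr, set to a count of 10 and a total of 15, and libraries were scaled by TMM. The quasi-likelihood F test of edgeR 4.0.16, run robustly in R 4.3.3, was the main test. All 20 libraries entered 1 model with group and batch. Benjamini-Hochberg adjustment ran over the 13894 genes left, and 0.05 was the threshold. CPM values use TMM-adjusted library sizes. The labels do not say whether libraries are separate animals, so p-values measure the spread between these libraries, which may be technical. No 2 libraries of a group agreed within counting noise (lowest chi-square per degree of freedom 11.7). Scripts were tested on simulated data.

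Exon lengths (all annotated exons of a gene, merged) and positions are from GENCODE M21, promoters from RefSeq, and 8 of 9 genes had a promoter entry. Correlations used 100000 permutations (SciPy 1.17.1), with a smallest possible p of 1e-05. The genes, lists and tests were chosen with earlier results of these data known. All 9 genes are named in each comparison, and of each pathway list up to 4 genes with the lowest p (1 further gene of haem synthesis is not reported here), counted in each genotype's refeeding comparison, with the value in the other genotype. Cyp1a1's levels and Cyp3a59 were added as neighbours, and Htatip2 and Insig2 between genotypes and the markers Alb, Stab1 and Lyve1 were chosen after their values were seen. Genes of similar profile were sought above 3 log2 CPM for genes with an SD of at least 0.4. Alternatives were RLE scaling, no filter, a filter of 1 CPM in 5 libraries, DESeq2 1.42.0, no batch term, batch 1 alone, a replicate block, a prior count of 0.5 in place of 2 for correlations, each library left out in turn, and, added after seeing the data, both K556R libraries numbered 1_b1 left out.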

Additional observations from a re-analysis of the deposited data

Results flagged for a closer look

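Each of the 9 genes was examined in each group of 5 libraries for a library whose gap to its nearest neighbour took up more than 0.71 of the group's range. Of 36 groups examined 4 had one. The threshold is set for about 1 in 20 by chance in a single group of alike, independent libraries. The 36 groups share the same libraries, so the count cannot be set against that rate. All 4 lay in refed K556R livers and in 2 of its libraries, both of batch 1. The other libraries of that group were of batch 2. Library 1_b1 had the lowest Nr1i3, 149 CPM, with the other 4 between 260.1 and 281 CPM, and the highest Cyp3a11, 6115 CPM, with the others between 3946 and 4573 CPM. This library is one of the 2 with high sums of proliferation and lymphocyte genes, and the part of that difference in these values was not tested. Library 2_b1 had the highest Alas1, 312 CPM, with the others between 126 and 179 CPM, and the lowest Cyp3a25, 757 CPM, with the others between 1023 and 1126 CPM.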

How the results depend on the processing

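The falls of Nr1i2, Por and Cyp3a13 with refeeding passed under every setting run and with each library left out; so did that of Alas1, except in K556R livers of batch 1 alone. The 9 genes gave 0 calls between genotypes and in the interaction under all settings. Of 9 genes, 4 to 7 were called in WT livers with a library left out (7 without WT fasted 3_b1), and 3 in K556R livers of batch 1 alone. Over all genes, calls between genotypes averaged over feeding were 4, against 41 with DESeq2, 2 with no batch term, 0 in batch 1 alone or with the replicate block, and 3 to 13 with a library left out (13 without K556R fasted 2_b1). DESeq2 called 68 genes in fasted livers, 6 in refed livers and 1 in the interaction, where edgeR called 0 in each.

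Signs turned for the following log2 differences, K556R minus WT. RLE scaling gave -0.0023 for the interaction of Cyp3a25, the stricter filter 0.0005 for fasted Ahr, and DESeq2 0.0004 for fasted Ahr and -0.0023 for the interaction of Cyp3a25. Batch 1 alone gave 0.0071 for fasted Ahr, -0.0070 for refed Ahr, -0.018 and -0.026 for the means of Nr1i2 and Por, and -0.014 and -0.047 for the interactions of Ahr and Cyp3a25. Without both apart K556R libraries, Nr1i3 was 0.072 fasted, 0.062 refed and 0.067 on average, fasted Ahr 0.017, refed Nr1i2 0.013, and the interactions of Cyp1a2 and Cyp3a25 0.082 and -0.065. The cause was not tested.

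By median correlation, same-numbered libraries were not more alike than others. Of same-numbered pairs, 4 of 18 correlated above 0.1 (median -0.024), against 9 of 54 other pairs (median -0.0095). The highest same-numbered value, 0.632, joined the fasted and refed K556R libraries numbered 1_b1, which stood apart. Fasted K556R 1_b1 had -0.632 with the other refed K556R library of batch 1, so these values mirror each other. Whether single libraries were paired was not tested. With the replicate block, 6 of the 9 genes were called in K556R livers and 4 in WT livers, as without it, no call of the 9 changed, and signs turned for fasted Nr1i3 (0.0019), fasted Ahr (0.020) and the interaction of Cyp3a25 (-0.058).

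With each library left out in turn, the ranges that crossed 0 were, fasted, -0.14 to 0.14 for Ahr and -0.11 to 0.087 for Nr1i3; refed, -0.074 to 0.030 for Nr1i2, -0.28 to 0.048 for Nr1i3 and -0.20 to 0.14 for Por; on average, -0.011 to 0.058 for Nr1i2, -0.14 to 0.022 for Nr1i3 and -0.023 to 0.16 for Por; and in the interaction, -0.23 to 0.18 for Cyp1a2, -0.10 to 0.043 for Cyp3a13, -0.12 to 0.11 for Cyp3a25 and -0.27 to 0.051 for Nr1i3. Correlated pairs passing numbered 0 without the 2 farthest libraries and 3 without both apart libraries.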
